A study of Homo sapiens with 8 samples.

Results

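The genes described here are 10 Wnt target and intestinal stem cell genes, LGR5, ASCL2, AXIN2, RNF43, ZNRF3, NKD1, NOTUM, LEF1, TCF7 and SP5. They were chosen by name from the 38148 genes of the deposited table, by a rule that used no measured value. The choice was made with earlier results of these data known. HT29 is a line of human colorectal cancer cells, and selumetinib inhibits MEK, which phosphorylates and activates ERK. The cells were left untreated or grown with 1 μM selumetinib for 24 h, fixed with glyoxal, stained for cyclin B1 (CCNB1), a protein that accumulates in G2, and sorted before poly(A) mRNA-seq. Each treatment gave a CCNB1-negative and a CCNB1-positive fraction, which makes 4 groups of 2 libraries. All groups share the HT29 line, the fixation, the staining and the sort, and no unsorted or unfixed library was analysed. The labels do not say whether the replicates came from separate cultures, so the spread between them may be technical.

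The sample labels contradict each other, since the title of each of the 8 libraries is the reverse of its short description in both treatment and fraction. Groups follow the descriptions, which are also the column names of the table. Under the titles, the response given below for CCNB1-negative cells would be that of CCNB1-positive cells with the sign turned, and the other way round. The fraction differences would trade treatments in the same way, and the difference between the responses would stay as it is. Under the descriptions, CCNB1 mRNA lay on the log2 scale at 11.66 and 12.01 in the CCNB1-negative and at 13.79 and 14.05 in the CCNB1-positive untreated libraries, at 7.92 and 7.22 in the treated CCNB1-negative and at 12.76 and 12.53 in the treated CCNB1-positive ones. CCNB1-positive libraries were thus the higher ones within each treatment. Under the titles they would be the lower ones, and the ERK-induced genes given next would be higher in the treated libraries. DUSP6, SPRY4, ETV4, ETV5 and PHLDA1, genes induced by ERK, were lower in the treated libraries of both fractions, by 1.13 (SPRY4) to 3.10 (ETV4) on the log2 scale in CCNB1-negative cells and by 1.06 (DUSP6) to 2.34 (ETV4) in CCNB1-positive cells. Of a list of 11 ERK output genes, 9 fell in each fraction, where 35.8% and 27.3% of all genes tested fell, while EPHA4 rose in both and SPRED2 rose in CCNB1-negative cells (0.72, adjusted p = 0.0058). All 11 epithelial markers checked had reads in every library, and all but CDX1 in untreated CCNB1-positive cells reached a mean of 1 RPM (reads scaled to the library total) in each group. Their sum was lower under the drug. It was 11568 to 12902 RPM in untreated, 6118 to 8857 in treated CCNB1-negative and 7608 to 10398 in treated CCNB1-positive libraries. Single markers went both ways. In CCNB1-negative cells 3 rose and 4 fell, and in CCNB1-positive cells 4 rose and 1 fell, where 38.2% and 38% of all genes tested rose. EPCAM fell in both fractions, while KRT19, VIL1 and CDX2 rose in both. The part of the lower sum in the results below was not tested. The 14 markers of fibroblasts, endothelium, blood and glia summed to 7.53 to 17.7 RPM, highest in the treated CCNB1-positive libraries (11.4 and 17.7). Only 2 of them, COL1A1 and CD68, were tested. CD68 passed in neither fraction. COL1A1 rose by 1.81 in CCNB1-negative and by 2.19 in CCNB1-positive cells, but with quantile normalization neither marker rose past the threshold. S100B was at 0 in all libraries. Reads on genes numbered 12696860 to 23916160 per library, fewest in the treated CCNB1-negative ones.

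Wnt ligands bind Frizzled and LRP receptors, which spares β-catenin from a destruction complex, and β-catenin then activates genes together with the TCF and LEF factors. In the intestine this pathway maintains the stem cells of the crypt, and LGR5 and ASCL2 mark those cells. Several targets restrain the pathway in turn: AXIN2 is part of the destruction complex, RNF43 and ZNRF3 are ubiquitin ligases that remove Frizzled from the surface, NOTUM is a secreted enzyme that strips the lipid from Wnt ligands, and NKD1 binds Dishevelled. HT29 cells, like most colorectal cancer lines, carry truncated APC, a scaffold of the destruction complex.

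TCF and LEF factors recognise short motifs, searched here as CTTTGAA, or else CTTTGAT, or else CTTTGTA, or else CTTTGTT, on either strand within the 250 bases before transcription starts in RefSeq (GRCh38.p14). Of 35116 such windows over all genes, 11.96% held at least 1 match. Windows were read for 4 of the 10 genes, SP5, TCF7, RNF43 and LEF1. Those of LGR5, ASCL2, AXIN2, ZNRF3, NKD1 and NOTUM were not analysed here. SP5 had 3 matches, at 148 to 142, 109 to 103 and 84 to 78 bases before its start, and the second of 2 TCF7 windows had 1, at 50 to 44 bases before the start. RNF43 and LEF1 windows held none of these letters. The windows of SP5 and TCF7, both genes of transcription factors, are shown because they hold these matches. Sequences run 5′ to 3′ on the strand of the gene, with motif matches in capitals (TTCAAAG is the reverse complement of CTTTGAA, and AACAAAG is that of CTTTGTT).
SP5, plus strand, chr2:170715087-170715336: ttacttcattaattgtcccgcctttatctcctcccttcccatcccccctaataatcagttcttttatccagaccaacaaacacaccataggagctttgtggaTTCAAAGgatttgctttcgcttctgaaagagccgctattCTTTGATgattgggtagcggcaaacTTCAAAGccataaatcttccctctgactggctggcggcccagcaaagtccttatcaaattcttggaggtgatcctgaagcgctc
TCF7, plus strand, chr5:134123368-134123617: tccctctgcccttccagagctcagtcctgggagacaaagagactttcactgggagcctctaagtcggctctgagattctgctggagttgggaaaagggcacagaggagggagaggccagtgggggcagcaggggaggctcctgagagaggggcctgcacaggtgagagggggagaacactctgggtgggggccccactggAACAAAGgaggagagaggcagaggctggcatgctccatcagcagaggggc
The table holds 1 value per gene and does not separate transcripts from the different TCF7 starts, and a match is a description of the letters, not a bound site.

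RNF43 stood above the other 9 genes in every group when levels were compared per exonic length, as RPKM (RPM divided by the length in kilobases). Per length of the whole gene it came after ASCL2 in treated CCNB1-positive cells (4.12 and 4.95) and first in the other 3 groups. Its level was 29.6 ± 3.45 RPKM (SD, n = 2) in untreated CCNB1-negative cells and 63.8 ± 2.70 in treated CCNB1-negative cells. In untreated CCNB1-negative cells ZNRF3 (9.37 ± 0.981) and AXIN2 (8.99 ± 0.762) came next and overlapped each other. TCF7 (4.28 ± 1.18) and ASCL2 (4.16 ± 0.765) also overlapped, as did SP5 (2.75 ± 0.472) and LGR5 (2.71 ± 0.176). NOTUM (0.129 ± 0.0808), LEF1 (0.0435 ± 0.0496) and NKD1 (0.0102 ± 0.00703) formed a low group in which neighbours overlapped. The order was the same in untreated CCNB1-positive cells, except that ASCL2 and TCF7, which overlapped, traded places. Under selumetinib, NOTUM moved from rank 8 to rank 5 of the 10 in CCNB1-negative cells (5.39 ± 0.328 RPKM) and to rank 7 in CCNB1-positive cells (1.93 ± 0.133), whereas LGR5 went to rank 8 in both (1.18 ± 0.268 and 1.18 ± 0.210).

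**Figure D1:**
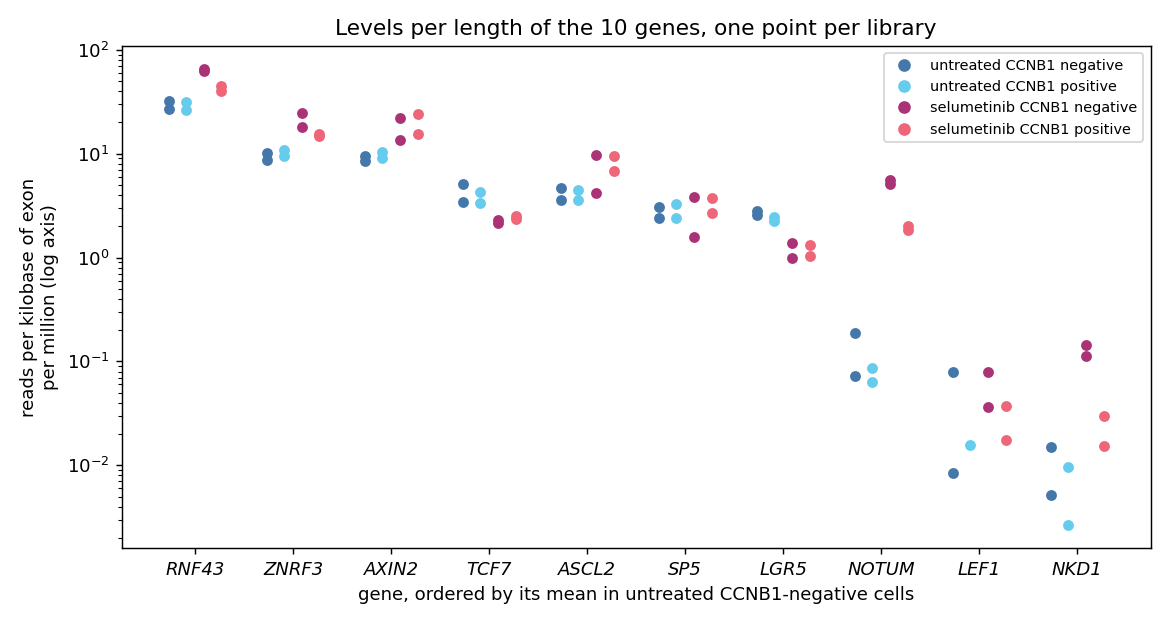
Level of each of the 10 genes in RPKM (log axis) in the 4 groups, with a point for each library that had reads. LEF1 had 0 reads in replicate 2 of untreated CCNB1-positive cells and has no point there. RNF43 is highest in every group at 28.8 to 63.8 RPKM on average, and NOTUM lies below LGR5 in both untreated groups and above it in both treated groups.

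NOTUM had the largest response of the 10 genes to selumetinib. NOTUM (ENSG00000185269, chromosome 17 of GRCh38, 81952507 to 81961840, minus strand) had 12 and 4 reads in replicates 1 and 2 of the untreated CCNB1-negative group, 6 and 4 in those of the untreated CCNB1-positive, 229 and 231 in the treated CCNB1-negative and 125 and 81 in the treated CCNB1-positive group. On the deposited log2 scale, where each library is scaled to the total reads of the largest, these were 3.70 and 2.33, 2.58 and 2.13, 8.49 and 8.61, and 7.14 and 7.0. The treated libraries were far above the untreated ones in both fractions, without overlap. The log2 difference was 5.53 (SE 0.45) in CCNB1-negative cells, 46.3-fold, with an adjusted p of 1.3e-07 (limma, Benjamini-Hochberg over 14219 genes). In CCNB1-positive cells it was 4.71 (SE 0.45), 26.1-fold, with an adjusted p of 1.7e-06. Among all genes tested these were rank 12 and rank 41 from the highest. NOTUM passed the filter of a mean of 1 RPM only through its treated libraries, so a difference was built into its being tested. Without any filter the adjusted p was 6.5e-06 and 5.0e-05, and with a pseudocount of 1 RPM, which shrinks low values, the difference was still 3.61 and 2.44. In bulk libraries such as these, fewer cells of a type and less RNA per cell cannot be told apart.

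NKD1 (ENSG00000140807, chromosome 16, 50548396 to 50649249, plus strand) stayed under the filter. Among CCNB1-negative libraries it had 2 and 5 reads untreated and 30 and 35 treated, and among CCNB1-positive ones 4 and 1 reads untreated and 11 and 4 treated. Treated libraries lay well above untreated ones in CCNB1-negative cells. In CCNB1-positive cells the lower treated library had as many reads as the higher untreated one, and was above it (2.66 against 2.0 on the log2 scale) only after scaling to library size. With no filter, 41.5% of 31381 genes passed in the CCNB1-negative fraction and 34.9% in the other. In that fit NKD1 was higher by 3.84 (SE 0.90, adjusted p = 0.00476) in CCNB1-negative cells, and its difference of 2.08 in CCNB1-positive cells was not past the threshold (adjusted p = 0.0992). A gene model on the same strand, AC007608.4, covers 3365 bases of NKD1. It had 0 and 1 reads in untreated and 6 and 11 in treated CCNB1-negative libraries. How reads shared by the models were counted is not given in the sources used here.

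AXIN2 (ENSG00000168646, chromosome 17, 65528563 to 65561648, minus strand), the Axin of the destruction complex that Wnt induces, rose in both fractions. Its log2 values were 10.21 and 10.04 untreated and 11.41 and 10.71 treated among CCNB1-negative libraries, and 10.32 and 10.13 untreated and 11.55 and 10.92 treated among CCNB1-positive ones (834 to 2665 reads). All treated libraries were above all untreated ones, and replicate 1 was above replicate 2 in each group. The difference was 0.94 (SE 0.23, adjusted p = 0.00208) in CCNB1-negative and 1.01 (SE 0.23, adjusted p = 0.00157) in CCNB1-positive cells. Without the first treated CCNB1-negative library the former was 0.58 (adjusted p = 0.0386). A protein-coding gene model on the same strand, AC004805.1, covers 23547 bases of AXIN2. It had 131 to 410 reads, and its differences were 0.24 (adjusted p = 0.395) and 0.70 (adjusted p = 0.0254).

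RNF43 and ZNRF3, the paired ubiquitin ligases, rose in both fractions. RNF43 (ENSG00000108375, chromosome 17, 58352500 to 58417595, minus strand) had CCNB1-negative log2 values of 12.25 and 12.01 untreated and 13.19 and 13.28 treated, a difference of 1.11 (SE 0.16, adjusted p = 2.4e-05). In CCNB1-positive libraries it had 12.22 and 11.95 untreated and 12.73 and 12.56 treated, a difference of 0.56 (SE 0.16, adjusted p = 0.00681). The groups did not overlap in either fraction, and RNF43 rested on 3269 to 6036 reads per library.

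ZNRF3 (ENSG00000183579, chromosome 22, 28883592 to 29057487, plus strand) had log2 values of 10.72 and 10.50 in untreated and 11.57 and 12.02 in treated CCNB1-negative libraries, a difference of 1.18 (SE 0.17, adjusted p = 1.9e-05). In CCNB1-positive libraries it had 10.81 and 10.65 untreated and 11.26 and 11.34 treated, a difference of 0.57 (SE 0.17, adjusted p = 0.00818). Its treated libraries, too, were all above its untreated ones.

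The calls for RNF43 and ZNRF3 held under every alternative in CCNB1-negative cells but not in CCNB1-positive cells. With median-of-ratios scaling, which moved the median of all genes by -0.34 in this comparison, they were 0.22 (adjusted p = 0.251) and 0.23 (adjusted p = 0.255). Without the second untreated CCNB1-positive library they were 0.43 (adjusted p = 0.110) and 0.49 (adjusted p = 0.0743). RNF43 also lost its call without the first treated CCNB1-positive library (0.48, adjusted p = 0.0638), and ZNRF3 without the second (0.53, adjusted p = 0.0520). A gene model on the same strand, AC004687.2, spans all of RNF43. It had 4776 to 7713 reads and rose by 0.83 (adjusted p = 0.00031) and 0.44 (adjusted p = 0.0251), and the sources used here do not say how reads shared by the models were counted. ZNRF3-IT1, a noncoding model within ZNRF3 on the same strand, had 75 to 567 reads and rose by 2.65 and 1.54.

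**Figure D2:**
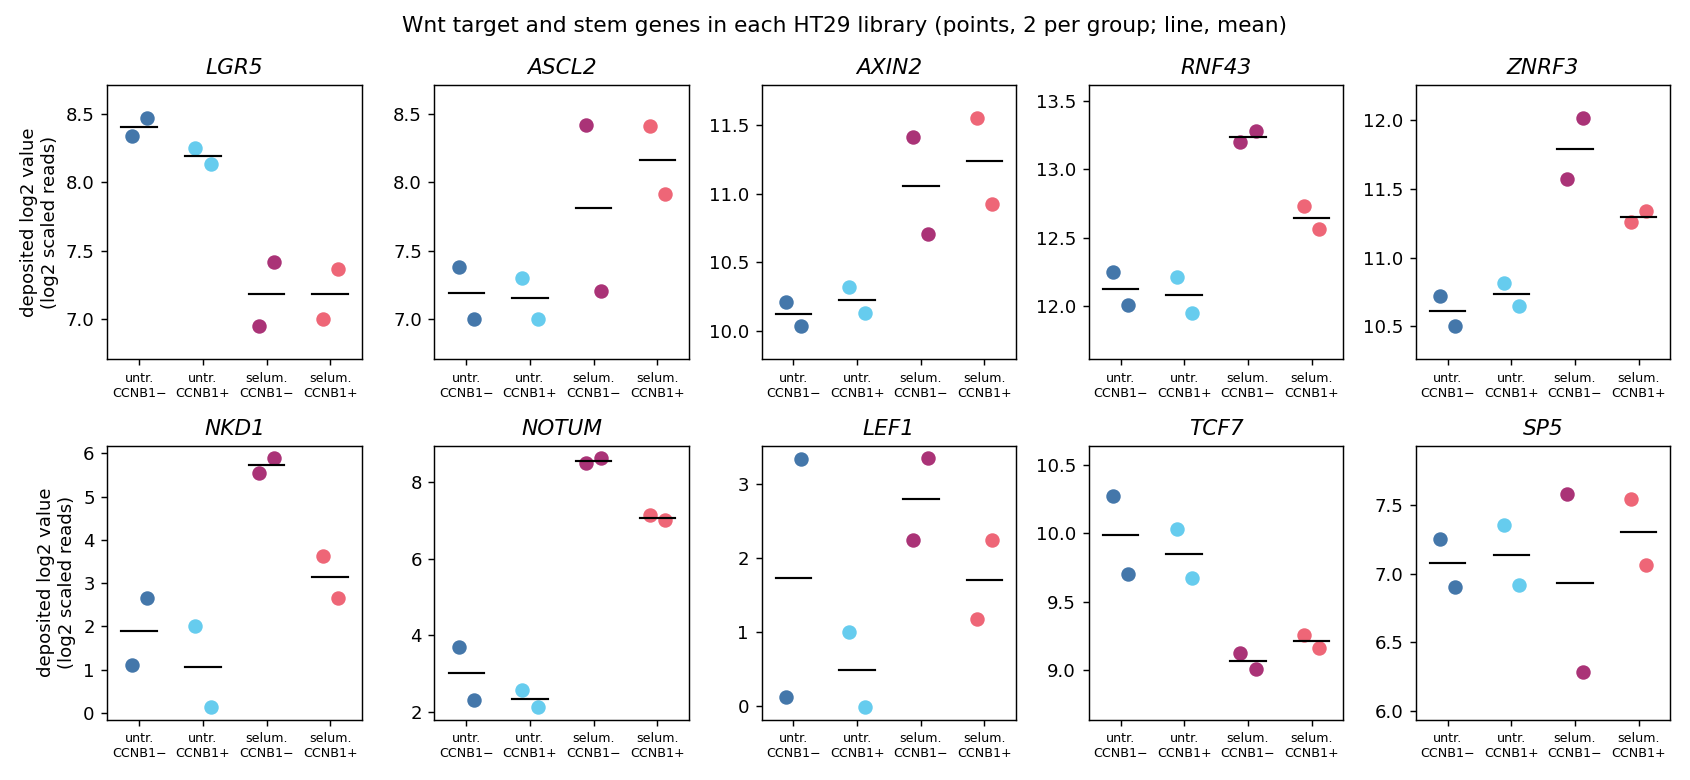
Deposited log2 value (reads scaled to the largest library) of each of the 10 genes, 1 panel per gene, in the 8 libraries by group. Treated libraries lie above untreated ones in both fractions for NOTUM, AXIN2, RNF43 and ZNRF3, below them for LGR5 and TCF7, and among them for SP5.

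Of the stem cell markers, LGR5 fell in both fractions and ASCL2 rose in CCNB1-positive cells. LGR5 (ENSG00000139292, chromosome 12, 71439798 to 71586310, plus strand), a receptor for R-spondins, had CCNB1-negative log2 values of 8.34 and 8.47 untreated and 6.95 and 7.42 treated. In CCNB1-positive libraries it had 8.25 and 8.14 untreated and 7.0 and 7.37 treated. All 4 treated libraries lay below all 4 untreated ones, on 79 to 114 against 257 to 304 reads. LGR5 fell by 1.21 (SE 0.22, adjusted p = 0.000223) in CCNB1-negative and by 1.01 (SE 0.22, adjusted p = 0.00139) in CCNB1-positive cells, and both calls held under every alternative in which it was tested. TSPAN8, on the opposite strand, shares 2101 bases with LGR5 and had 5918 to 21477 reads. It fell by 1.01 (adjusted p = 0.000659) in CCNB1-negative cells, and its difference in CCNB1-positive cells was -0.48 (adjusted p = 0.0599). The libraries were made with a strand-specific kit, but whether this table was counted by strand is not given in the sources used here.

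ASCL2 (ENSG00000183734, chromosome 11, 2268495 to 2270952, minus strand), a transcription factor of the crypt base, had log2 values of 7.38 and 7.01 in untreated and 8.42 and 7.20 in treated CCNB1-negative libraries. In CCNB1-positive libraries it had 7.30 and 7.0 untreated and 8.41 and 7.91 treated. The treated CCNB1-negative replicates were far apart and the lower one fell between the untreated libraries, whereas in CCNB1-positive cells the groups did not overlap. ASCL2 rose by 1.01 (SE 0.33, adjusted p = 0.0158) in CCNB1-positive cells, and in CCNB1-negative cells the difference was 0.62 (95% interval -0.10 to 1.33, adjusted p = 0.106). Both calls depended on single libraries and settings. In CCNB1-positive cells ASCL2 was at 0.86 (adjusted p = 0.0776) without the second untreated library, at 0.76 (adjusted p = 0.124) without the first treated library, at 0.38 (adjusted p = 0.390) with quantile normalization and at 0.67 (adjusted p = 0.0616) with median-of-ratios scaling. In CCNB1-negative cells it was at 1.22 (adjusted p = 0.00305) without the second treated library and at 0.01 (adjusted p = 0.976) without the first, and it passed when only the groups compared were fitted (adjusted p = 0.0319).

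Of the transcription factors, TCF7 fell in both fractions, and neither SP5 nor LEF1 passed the test. TCF7 (ENSG00000081059, chromosome 5, 134114681 to 134151865, plus strand), which encodes TCF1, had log2 values of 10.27 and 9.70 in untreated and 9.13 and 9.01 in treated CCNB1-negative libraries, and 10.03 and 9.67 in untreated and 9.26 and 9.16 in treated CCNB1-positive ones. Treated libraries were below untreated ones throughout. TCF7 fell by 0.92 (SE 0.19, adjusted p = 0.000703) in CCNB1-negative and by 0.64 (SE 0.19, adjusted p = 0.0102) in CCNB1-positive cells. In CCNB1-positive cells the difference was -0.46 (adjusted p = 0.105) without the first untreated and -0.59 (adjusted p = 0.0567) without the second treated library. SKP1, on the opposite strand, shares 2931 bases with TCF7, had 854 to 3803 reads and fell by 1.14 (adjusted p = 0.000322) and 0.72 (adjusted p = 0.0109).

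SP5 (ENSG00000204335, chromosome 2, 170715351 to 170718078, plus strand), a transcription factor directly induced by Wnt, had log2 values of 7.26 and 6.90 in untreated and 7.58 and 6.29 in treated CCNB1-negative libraries, and 7.36 and 6.91 in untreated and 7.55 and 7.06 in treated CCNB1-positive ones. Treated and untreated libraries overlapped in both fractions. The differences were -0.15 (95% interval -0.92 to 0.63, adjusted p = 0.725) and 0.17 (-0.60 to 0.94, adjusted p = 0.691). The former was -0.79 (adjusted p = 0.0443) without the first treated CCNB1-negative library and turned to 0.50 (adjusted p = 0.175) without the second. AC007405.1, a noncoding gene that covers SP5 on the opposite strand, had 35 to 212 reads and rose by 2.14 and 1.92. LEF1 (ENSG00000138795, chromosome 4, 108047545 to 108168956, minus strand) had 0 to 8 reads in each library, too few for a difference to be detected at this depth. With no filter its adjusted p was 0.378 and 0.381.

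Of the 8 genes that passed the filter, 4 rose and 2 fell in CCNB1-negative cells, in a comparison in which 74.1% of all 14219 genes tested passed in either direction (38.2% higher and 35.8% lower). In CCNB1-positive cells 5 rose and 2 fell, where 65.3% of all genes passed (38% higher and 27.3% lower). The 8 genes thus changed about as often as other genes did in CCNB1-negative cells. Their median difference was 0.78 and 0.57, against 0.05 and 0.17 over all genes tested, with NOTUM among them through its treated libraries. With median-of-ratios scaling, which moved the median of all genes by -0.26 and -0.34, and with quantile normalization (-0.12 and -0.24), each of the called genes kept its direction. On recovered reads, limma-voom moved the medians the other way, by 0.14 and 0.11. It gave 6000 rises and 4512 falls in CCNB1-negative cells, and 6055 and 3463 in CCNB1-positive cells. Over all genes tested, the 5438 rises and 5092 falls in CCNB1-negative cells became 4580 and 6103 with median-of-ratios scaling and 4958 and 5375 with quantile normalization, and the 5400 rises and 3888 falls in CCNB1-positive cells became 3923 and 5663 with median-of-ratios scaling and 3986 and 4482 with quantile normalization.

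In untreated cells none of the 8 genes passed the test between CCNB1-positive and CCNB1-negative fractions, which is near the 2.87% of all genes that did (1.36% higher and 1.51% lower, or 194 and 214 genes, against 281 and 179 with median-of-ratios scaling and 167 and 87 with quantile normalization). With limma, 0 passed and 0 had an unadjusted p under 0.05, and limma-voom gave the same counts. The differences lay between -0.66 for NOTUM (adjusted p = 0.616), on 4 to 12 reads, and 0.12 for ZNRF3. Both CCNB1-positive libraries of LGR5 (8.25 and 8.14) lay below both CCNB1-negative ones (8.34 and 8.47), although LGR5 did not pass. Without the first or the second untreated CCNB1-negative library, NOTUM was at 0.03 (adjusted p = 0.992) or -1.34 (adjusted p = 0.208). The intervals of RNF43 (-0.39 to 0.30) and ZNRF3 (-0.24 to 0.48) stayed within a 2-fold difference (1 on the log2 scale) in either direction, and that of NOTUM (-1.63 to 0.31) reached beyond it.

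In selumetinib-treated cells RNF43, ZNRF3 and NOTUM were lower in the CCNB1-positive than in the CCNB1-negative fraction, 3 of 8 where 21.6% of all genes passed (13.8% higher and 7.87% lower, or 1958 and 1119 genes, against 1944 and 2240 with quantile normalization). The difference was -1.49 for NOTUM (SE 0.45, adjusted p = 0.0320), -0.59 for RNF43 (SE 0.16, adjusted p = 0.0185) and -0.49 for ZNRF3 (SE 0.17, adjusted p = 0.0482). For each of these genes both CCNB1-positive libraries lay below both CCNB1-negative ones, as did those of NKD1, while those of TCF7 lay above. Such separation, here or in the other comparisons, was not counted over all genes. AXIN2 (0.18), ASCL2 (0.35), SP5 (0.37) and TCF7 (0.14) were not past the threshold, and LGR5 was at the same level in both fractions (-0.00, 95% interval -0.48 to 0.48). Among the limma alternatives without a single library left out, the lowest adjusted p was 0.000119 for RNF43, 0.000775 for ZNRF3 and 0.00025 for NOTUM. These alternatives include a replicate block within each treatment, in which 6671 genes passed, and no label gives such pairs. All 3 calls were lost in the fit with no filter on low values, in which 7.41% of all genes passed, with the same differences and adjusted p of 0.0588 for RNF43, 0.106 for ZNRF3 and 0.118 for NOTUM. They were also lost without the second treated CCNB1-negative or either treated CCNB1-positive library, and that of NOTUM without the first treated CCNB1-negative library as well, where its adjusted p over the 4 treated libraries was 0.0802 to 0.203. ZNRF3 was lost without any of the 4 untreated libraries too (adjusted p up to 0.0613), with median-of-ratios scaling (adjusted p = 0.0600) and when only the groups compared were fitted (adjusted p = 0.0733), and without the second treated CCNB1-negative library it was at -0.27 (adjusted p = 0.348). SP5 and ASCL2 turned with the treated CCNB1-negative library left out. They were at 1.02 (adjusted p = 0.0352) and 0.96 (adjusted p = 0.0315) without the first, and at -0.28 (adjusted p = 0.638) and -0.26 (adjusted p = 0.636) without the second.

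Whether the drug response itself differed between fractions was tested as an interaction, in which 5.33% of all genes passed (4.99% higher and 0.345% lower, or 709 and 49 genes, against 731 and 326 with quantile normalization). None of the 8 genes did with limma or with limma-voom, both without a replicate block. Under limma with a replicate block within each treatment, RNF43 (adjusted p = 0.00764) and ZNRF3 (adjusted p = 0.00454) passed, among 3850 genes in all. No label gives such pairs. Without the block, RNF43 (-0.55, unadjusted p = 0.0296, adjusted p = 0.193) and ZNRF3 (-0.61, unadjusted p = 0.0205, adjusted p = 0.159) had an unadjusted p under 0.05 in limma and in limma-voom. NOTUM was at -0.83 (adjusted p = 0.495), which became -1.51 or -0.14 without the first or the second untreated CCNB1-negative library, and the other 5 lay between 0.08 and 0.39. ZNRF3 passed without the first treated CCNB1-negative library (-0.84, adjusted p = 0.0258), and NOTUM passed on the scale of log2(RPM + 1) (-1.17, adjusted p = 0.0288).

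Replicate 1 was above replicate 2 in each of the 4 groups for ASCL2, AXIN2, SP5 and TCF7. In treated CCNB1-negative cells the SDs of these genes were 0.86, 0.50, 0.92 and 0.09 on the log2 scale, and those of RNF43 and NOTUM 0.06 and 0.09. LGR5 and ZNRF3 were higher in replicate 2 of both treated fractions. Over the 8 libraries, the genes most like RNF43 were GOLGA2 (Pearson r = 0.995), PCDHGB5 (0.995) and PCDHGA9 (0.995), and those most like LGR5 were SRPK1 (0.990), SPRED1 (0.989) and ELOVL6 (0.988). These correlations share libraries and the effect of the drug and are a description.

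Outside the 10 genes, the ligand and receptor side of the pathway was partly expressed in HT29 cells. Of 21 Wnt ligands and secretion genes 6 were tested, of which 3 rose among CCNB1-negative cells, 2 rose among CCNB1-positive ones and 0 fell (median 0.77 and 0.83). WNT2B, a Wnt ligand, rose by 3.07 and 2.95, and WLS, the carrier that brings Wnt ligands to the surface, by 0.81 and 0.87. Of 21 R-spondins and receptors 11 were tested, none of them an R-spondin. In CCNB1-negative cells 5 rose and 2 fell, and in CCNB1-positive cells 4 rose and 1 fell (median 0.35 and 0.43). LGR4, the broadly expressed relative of LGR5, rose by 1.41 and 0.91 and the co-receptor LRP6 by 1.06 and 0.76, while the Wnt receptor FZD5 fell by 1.58 and 1.08. The receptor FZD3 rose by 0.90 and 0.99, but its sign turned with quantile normalization (-0.08 and -0.19). LRP6 in CCNB1-positive cells had an adjusted p of 0.0582 with median-of-ratios scaling.

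In the cytoplasmic part, 17 of 18 genes were tested. Of these 8 rose and 6 fell in CCNB1-negative cells, and 7 rose and 5 fell in CCNB1-positive cells (median 0.24 and 0.14). BTRC, which marks β-catenin for degradation, rose by 1.81 and 0.97, TNKS, which destabilises Axin, by 1.30 and 1.05, and CTNNBIP1, which blocks β-catenin from binding TCF, by 1.62 and 1.2. DVL1, a Dishevelled, fell by 1.10 and 1.21. Among 12 of 15 TCF partners and co-repressors tested, 8 rose and 2 fell in CCNB1-negative cells and 4 rose and 1 fell in CCNB1-positive cells (median 0.56 and 0.26). TCF7L2, the main TCF factor of the intestinal epithelium, rose by 1.38 and 0.84, so that it and TCF7 went in opposite directions. The acetyltransferases CREBBP (1.59 and 1.11) and EP300 (0.82 and 0.49) and the co-repressor TLE4 (0.92 and 0.86) rose too. In CCNB1-positive cells the calls of TCF7L2, EP300 and TLE4 were each lost under 1 or more alternatives, with adjusted p of up to 0.0612, 0.412 and 0.993, and that of TLE4 in CCNB1-negative cells as well (up to 0.196).

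Secreted and surface inhibitors were mostly below the filter, and 4 of 16 were tested. DKK1, which blocks LRP co-receptors, fell by 2.69 and 2.29, and KREMEN1, the DKK receptor, rose by 2.16 and 1.473, so DKK1 and NOTUM, both secreted inhibitors, moved oppositely. Of 13 other β-catenin/TCF targets tested (20 listed), 2 rose and 7 fell in CCNB1-negative cells and 3 rose and 6 fell in CCNB1-positive cells, with medians of -0.88 and -0.34. MYC fell by 2.27 and 1.85 and CCND1 (cyclin D1) by 1.60 and 1.29, both of which are also induced by ERK, while ZBTB7C rose by 1.98 and 1.24 and the receptor EPHB2 by 1.95 and 1.84. Of 14 other stem cell genes tested (20 listed), 6 rose and 4 fell in CCNB1-negative cells and 5 rose and 4 fell in CCNB1-positive cells (median 0.38 and 0.20). EPHB2, EPHB3, SOX9 and CD44 are counted both here and among the targets. The transcription factor SOX4 rose by 3.04 and 2.50 and the membrane protein PROM1 by 1.44 and 1.36, and CDCA7 fell by 1.92 and 1.34. With quantile normalization EPHB2 in CCNB1-positive cells was at 0.78 (adjusted p = 0.0504).

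The balance of rises and falls in the lists moved with the scaling. In CCNB1-negative cells 7 cytoplasmic genes rose and 7 fell, and 5 TCF partners rose and 3 fell, with median-of-ratios scaling, and 4 receptor genes rose and 4 fell with quantile normalization. In CCNB1-positive cells with median-of-ratios scaling 1 receptor gene rose and 4 fell, 3 cytoplasmic genes rose and 6 fell, 2 TCF partners rose and 4 fell, and 3 stem cell genes rose and 5 fell. The targets fell more often than they rose under this scaling too (3 and 7), and 2 ligand and secretion genes rose and 0 fell. The counts of these lists, like those of the 10 genes, stand beside 74.1% and 65.3% of all genes called.

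**Figure D3:**
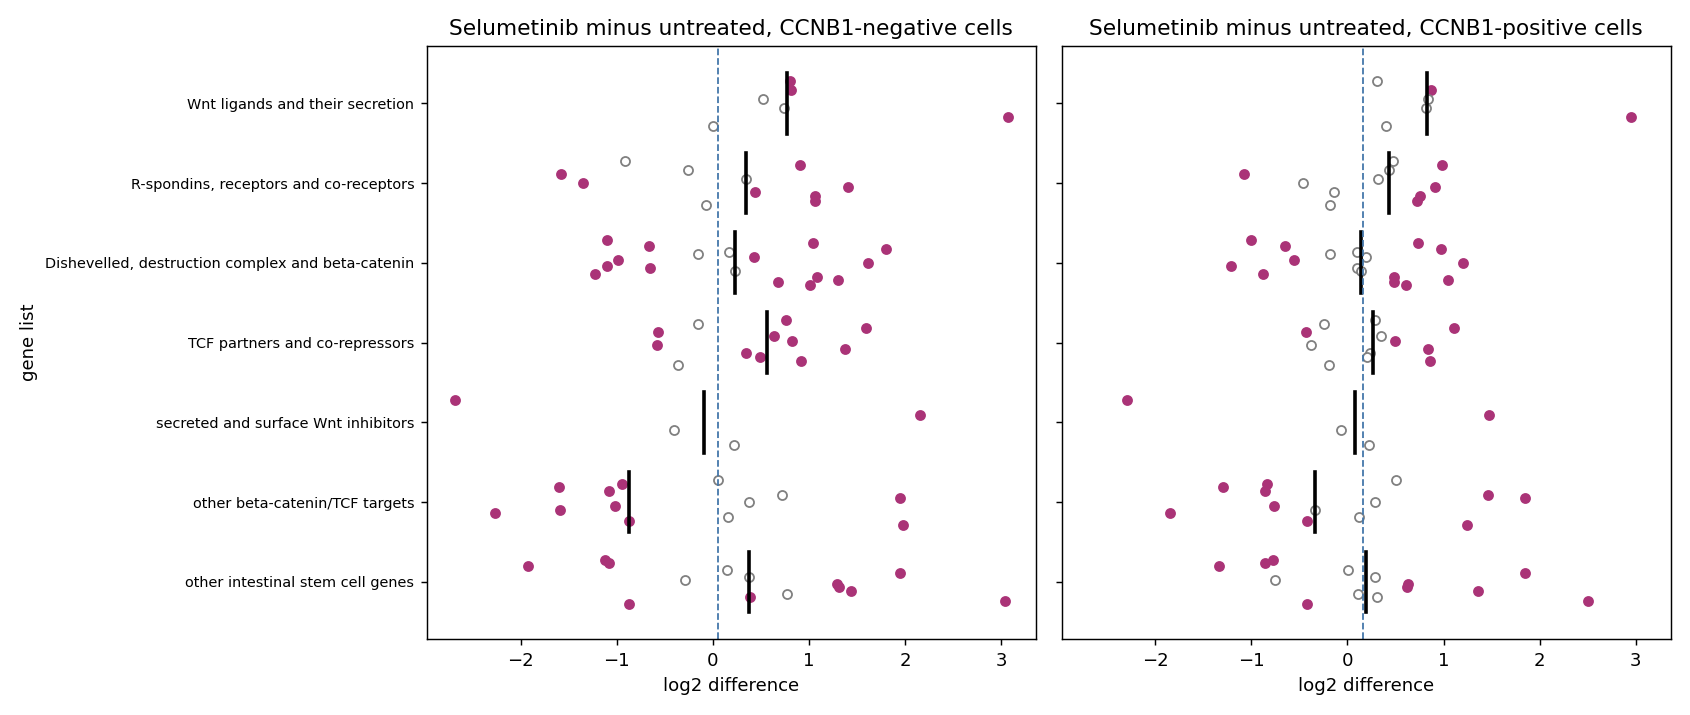
Log2 difference under selumetinib of each tested gene in the 7 pathway lists, in CCNB1-negative and CCNB1-positive cells (filled, adjusted p under 0.05; black bar, median of the list; dashed line, median of all genes tested). The other β-catenin/TCF targets have the lowest medians (-0.88 and -0.34), and each of the lists with more than 6 genes tested holds genes on both sides of 0.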

How the data were processed

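HT29 mRNA-seq libraries were analysed from 1 deposited table of the whole series. Per the methods and the submitters' processing notes, the authors used Trim Galore 0.5.0 for trimming, HISAT2 2.1.0 for alignment to GRCh38 and SeqMonk 1.47.0 for quantification. The deposited values are log2 reads normalised to the total of the largest library, with 0.9 reads for a gene without reads. The scaling factors did not match the reads on genes. In treated CCNB1-negative libraries they were 1.57 and 1.7, and the scaled reads of treated libraries summed to less than those of the largest. The authors' own test was DESeq2, and the annotation release and strand setting of this table are not given in the sources used here. All 8 value columns were used.

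Reads were recovered from the log2 values and were whole within 0.01 for 100% of genes under 1000 reads. Depth was 12696860 to 23916160 reads on genes, and without molecular identifiers read counts speak for counting error only. Replicates differed by more than sampling noise (chi-square per gene 17.3 to 33.5). The 14219 genes whose mean reached 1 RPM were fitted in R 4.3.3 by limma 3.58.1 (trended prior variance), with 1 coefficient per group over the 8 libraries and no block. Benjamini-Hochberg adjustment ran over all genes tested, with 0.05 as threshold. The design had allowed for counts or log2 values, and the log2 form was used. The code of the fit was run on simulated reads with known changes. These had 1 fixed spread and no deviations shared between libraries, so the run does not speak for replicates like these. Alternatives were no filter, 10 RPM, quantile and median-of-ratios scaling, pseudocounts of 0.1 and 1 RPM, limma-voom on recovered reads, a replicate block, only the groups compared, stricter calls, and each library left out. Identifiers were matched to GENCODE 44. Tables and figures used Python 3.11.15, pandas 2.3.3, numpy 2.4.6 and matplotlib 3.10.9.

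The genes and lists were chosen with earlier results of these data known. Named were all 10 genes, CCNB1, 5 ERK targets, up to 4 genes per list with the largest mean response among those passing in both fractions in 1 direction, and the 3 genes most correlated with RNF43 and LGR5. EPHA4, SPRED2, EPCAM, KRT19, VIL1, CDX1, CDX2, COL1A1, CD68, S100B and the genes overlapping the 10 were named after their values were seen. EPHB3, SOX9 and CD44 were named because both the target and the stem cell list hold them. The labels give RPMI-1640 as medium and the methods another.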

Additional observations from a re-analysis of the deposited data

Results flagged for a closer look

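The response of CCNB1 itself to selumetinib differed between the sorted fractions by 2.99 on the log2 scale in the interaction of the limma fit (adjusted p = 1.8e-05), where it fell by 4.27 in the CCNB1-negative and by 1.27 in the CCNB1-positive cells, and CCNB1 protein was what the cells were sorted on.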

How the results depend on the processing

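Over all alternatives, none of the values for the 8 tested genes that had passed changed sign. In CCNB1-positive cells the 7 genes that passed became 4 with a filter of 10 RPM (4 tested), 4 with median-of-ratios scaling and 4 when a 2-fold difference was required, and 4 to 7 when 1 library was left out (4 without the second untreated CCNB1-positive one). In CCNB1-negative cells leaving out 1 library gave 6 to 7 of the 8. Between fractions under selumetinib the 3 genes became 0 with no filter on low values, 0 at an adjusted p under 0.01 and 1 with a 2-fold difference required, and 0 to 4 when 1 library was left out. For the difference of the responses the 0 genes became 1 on the scale of log2(RPM + 1) and 0 to 1 when 1 library was left out. When the length of the whole gene replaced exonic length, 5 of the 10 genes kept their rank in untreated CCNB1-negative, 4 in untreated CCNB1-positive, 7 in treated CCNB1-negative and 2 in treated CCNB1-positive cells.

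Replicate numbers were shared over the 4 groups. Deviations of same-numbered libraries correlated between fractions of 1 treatment (0.35 untreated and 0.43 treated) and not between treatments (-0.09 to 0.08), and each comparison has 2 pairs at most. No label ties a number to a shared culture or day, so the numbers were not taken as pairs. With a replicate block over all groups, 883 genes had a different response between fractions against 758 without it, and ASCL2 in CCNB1-negative cells passed (adjusted p = 0.0329). With a replicate block within each treatment, 2 of the 8 genes passed for the difference of the responses, RNF43 (adjusted p = 0.00764) and ZNRF3 (adjusted p = 0.00454), and over all genes 3850 differed in response, 1923 (408 without it) between untreated fractions and 6671 (3077 without it) between treated fractions.

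Over all genes, the 408 differing between untreated fractions became 259 with no filter and 254 with quantile normalization, and 224 to 455 when 1 library was left out. The 3077 differing between treated fractions became 1156 without the second treated CCNB1-negative library, and 1278 and 1621 without the first and the second treated CCNB1-positive one. The 758 genes with different responses became 496 with no filter, 489 without the second untreated CCNB1-negative library, 497 without the second treated CCNB1-positive one and 1806 without the first treated CCNB1-negative one. The causes were not tested. Depth limits the values of LEF1 and NKD1, and those of NOTUM in untreated cells.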
